A study of Homo sapiens with 12 samples.

Results

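The genes described here are 10 markers of the differentiated enterocyte, the absorptive cell of the intestinal epithelium: FABP1, VIL1, KRT20, CDX1, CDX2, ANPEP, DPP4, ALPI, LGALS4, and CDH17. All array probes whose RefSeq accession belongs to one of these genes were taken, which gave 11 probes for the 10 genes (2 for VIL1), out of 17240 genes with a named probe. Each gene is given by its brightest probe, and the second VIL1 probe is given beside the first. The arrays are 12 dual-color Agilent whole-genome arrays, and 6 of them hold RNA from Ls174T, a colorectal cancer line whose mutated β-catenin keeps the Wnt pathway active. Ls174T cells received 15 nM siRNA pools for 72 h. A first pair of arrays (2, with the dyes exchanged) set cells given si-b-catenin directly against si-control cells, and 1 array each set cells given si-control, si-MLLT10 (the MLLT10/AF10 gene), si-BRG1, or si-P300 against universal human reference RNA. The other 6 arrays hold RNA from HEK293T, a human embryonic kidney line, against the same reference. These cells received si-control before 9 h in control medium, or si-control, si-MLLT10, si-DOT1L, si-BRG1, or si-P300 before 9 h in Wnt3A medium. Each condition was taken as 1 culture, and the arrays with exchanged dyes as 1 RNA preparation read over again. The labels do not state whether the 2 arrays shared a preparation. Without replicates no test between conditions was possible. The error given with a value is the one that the Feature Extraction program computed for the spot, combined over the arrays compared, and it leaves out the spread between cultures. In bulk RNA, fewer cells of a type and less RNA per cell cannot be told apart.

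Enterocytes arise from crypt progenitors as these leave the zone of high Wnt signaling and move onto the villus or the colonic surface. The homeobox factors CDX1 and CDX2 set intestinal identity and switch on genes of the absorptive cell. Mature enterocytes then build a brush border of microvilli, held together by actin bundlers such as villin (VIL1), and carry digestive enzymes on it, among them the aminopeptidase ANPEP, the dipeptidyl peptidase DPP4, and the intestinal alkaline phosphatase ALPI. FABP1 binds fatty acids in the cytoplasm, KRT20 is a keratin of the uppermost epithelial cells, LGALS4 is a galectin of the apical membrane, and CDH17 is a cadherin of intestinal cell contacts. The comparisons show what these genes did when the Wnt effector β-catenin, or one of 3 cofactors proposed to act with it, was depleted.

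Promoter sequence is shown for the 3 markers that rose most and had a RefSeq promoter entry, and for CDX2, an upstream regulator. Each is the 250 bases before the gene's start site, 5′ to 3′ along the gene, from RefSeq on GRCh38.p14. Capitals mark every match, on either strand, to the letters of 5 motifs. The TCF factors, partners of β-catenin, were searched as CTTTGAT and its variant CTTTGAA, and the CDX factors as TTTATNG. The hepatic and intestinal factors HNF1 and HNF4 were searched as GTTAAT and, for the latter, CAAAGTC. The GATA factors of the gut were searched as AGATAA.
FABP1, chr2:88128063-88128312, minus strand: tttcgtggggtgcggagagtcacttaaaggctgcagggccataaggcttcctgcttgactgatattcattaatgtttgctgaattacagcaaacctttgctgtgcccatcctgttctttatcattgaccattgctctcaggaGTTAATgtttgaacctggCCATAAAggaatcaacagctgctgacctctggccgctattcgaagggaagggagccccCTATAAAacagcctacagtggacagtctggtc
KRT20, chr17:40885243-40885492, minus strand: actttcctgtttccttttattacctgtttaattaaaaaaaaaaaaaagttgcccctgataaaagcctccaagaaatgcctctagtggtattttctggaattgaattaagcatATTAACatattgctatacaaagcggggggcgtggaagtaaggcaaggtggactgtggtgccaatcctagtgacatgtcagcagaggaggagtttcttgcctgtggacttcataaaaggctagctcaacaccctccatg
LGALS4, chr19:38812946-38813195, minus strand: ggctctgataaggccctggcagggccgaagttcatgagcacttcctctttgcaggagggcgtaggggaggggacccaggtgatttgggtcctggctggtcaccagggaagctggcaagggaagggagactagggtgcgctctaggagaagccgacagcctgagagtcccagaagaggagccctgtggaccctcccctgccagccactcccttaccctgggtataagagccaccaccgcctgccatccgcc
CDX2, chr13:27969316-27969565, minus strand: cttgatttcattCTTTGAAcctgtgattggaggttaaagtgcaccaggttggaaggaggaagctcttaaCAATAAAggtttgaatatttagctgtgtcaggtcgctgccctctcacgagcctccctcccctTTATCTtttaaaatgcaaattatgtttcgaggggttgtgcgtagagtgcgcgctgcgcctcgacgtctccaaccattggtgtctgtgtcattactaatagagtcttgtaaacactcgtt
The FABP1 window held 2 matches to the CDX letters, at -90 to -84 and at -32 to -26 from the start site, and 1 match to the HNF1 letters at -108 to -103. The CDX match nearest to the FABP1 start, CTATAAA, contains the letters of a TATA box. KRT20 had 1 match, to the HNF1 letters, at -138 to -133, and in LGALS4 none of these letters occurred in the window. The CDX2 window held a TCF match at -238 to -232, a CDX match at -181 to -175, and a GATA match at -119 to -114. ANPEP, DPP4, and ALPI also had promoter entries, and VIL1, CDX1, and CDH17 were not searched. Among the 7 markers with a window searched, 2 held the CDX letters, 3 the HNF1 letters, and 1 each the TCF, HNF4, and GATA letters. The shares over 35116 RefSeq promoter windows of the same length were 8.93% for CDX, 6.23% for HNF1, 5.94% for TCF, 2.91% for HNF4, and 9.17% for GATA. The marker counts are per gene over all its windows, and ANPEP had more than 1, while the shares are per window. These matches describe letters and not occupied sites.

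The labels held up on the genes used to check them. The mRNA of each gene targeted in Ls174T cells was lower after its own siRNA, CTNNB1 (β-catenin) by a log2 change of -2.70, MLLT10 by -1.42, SMARCA4 (BRG1) by -2.53, and EP300 (p300) by -1.31. EP300 was not well above background in p300-depleted cells, so its value gives a direction and no firm size. All 8 colorectal epithelial genes checked, among them EPCAM, CDH1, CEACAM5, and KRT8, were well above background on all 4 Ls174T reference arrays. CEACAM5 and CEACAM6 were at background on all 6 HEK293T arrays, and LIN28B, a gene of HEK293T cells, was at background on all 4 Ls174T reference arrays and well above it on all 6 HEK293T arrays. The arrays lie on 5 slides. The β-catenin pair shares 1 slide, the Ls174T si-control and si-MLLT10 arrays share another, and the Ls174T si-BRG1 and si-P300 arrays share a further one, so that for BRG1 and p300 the slide and the siRNA cannot be told apart.

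Depletion of β-catenin raised 4 of the enterocyte markers, by 4.23-fold to 33.5-fold. FABP1, KRT20, LGALS4, and CDH17 passed the 2-fold threshold, while VIL1 and CDX1 stayed within it. For a comparison, a gene counted as well-measured where its signal exceeded 2-fold the local background in either channel on every array compared, which held for 6 of the 10 markers here. No marker was lower by 2-fold. Over all 9171 genes well-measured on both arrays, 4.67% were higher by 2-fold and 1.24% were lower. The median log2 change was 2.68 over the 6 markers, and the median over all genes lay between -0.01 and 0.04 in each of the 4 Ls174T comparisons.

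FABP1, the fatty acid carrier, had log2 ratios of depleted over si-control RNA of 5.16 on the first array and 4.97 on the array with exchanged dyes, with a mean of 5.07 (error 0.37), a 33.5-fold difference. Its signal stood 276 and 305 times above the local background in the depleted channels, against 14.4 and 9.26 times in the si-control channels. The gene was thus measured on both sides of the ratio, and it ranked 3 of 9171 genes counted from the largest increase. KRT20, the surface keratin, followed at rank 8. Its ratios were 4.94 and 4.62, with a mean of 4.78 (error 0.35) or 27.5-fold, and its signal was 88.0 and 77.2 times background in depleted cells against 5.69 and 3.94 times in si-control cells. Both genes were detected in control cells and rose far above that level once β-catenin was depleted.

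LGALS4, the galectin, reached 3.31 and 3.26 on the 2 arrays, with a mean of 3.29 (error 0.26), 9.75-fold, at rank 29. CDH17, the cadherin, reached 2.06 and 2.10, with a mean of 2.08 (error 0.20), 4.23-fold, at rank 99. In all 4 of these genes every depleted channel was above every si-control channel of its array, and the 2 arrays differed by at most 0.32 on the log2 scale, where the median absolute difference between the arrays was 0.15 over all 9171 genes. With normexp background correction and loess normalization CDH17 was at 1.5 and the other 3 at 3.08 to 4.99. All 4 kept their call.

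The regulator CDX1 and the actin bundler VIL1 were bright and nearly level. CDX1 had ratios of 0.20 and 0.17, a mean of 0.18 (error 0.14), with signals 19.2 to 31.2 times background in all 4 channels. VIL1 had ratios of 0.51 and 0.43, a mean of 0.47 (error 0.15), and its second probe 0.49 and 0.20, a mean of 0.35 (error 0.15). VIL1 was thus higher by 1.38-fold, with both probes and both arrays on the same side and none of them near 2-fold.

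The other 4 markers could not be read firmly from the pair. CDX2 was 14.3 and 19.9 times background in the depleted and si-control channels of the first array, with a ratio of 0.08 (error 0.20), but neither channel was well above background on the second, where the ratio was 0.31 (error 0.77). The first array alone therefore places CDX2 close to level. The peptidase DPP4 was dim, at 1.52 to 2.19 times background, with ratios of 1.37 and 0.51 on either side of 2-fold and a mean of 0.94 (error 0.28). ANPEP was not well above background in si-control cells on either array. In depleted cells it was well above background on 1 array, at 1.90 times background. Its measured ratios of 2.91 and 1.27 therefore give neither a size nor a firm bound. Their mean was 2.09 (error 0.605), and normexp with loess gave 0.53. ALPI had ratios of -0.22 and 1.37 and was not well above background in depleted cells on either array. Of the 3 brush border enzymes, then, none gave a measured 2-fold difference on both arrays.

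**Figure D1:**
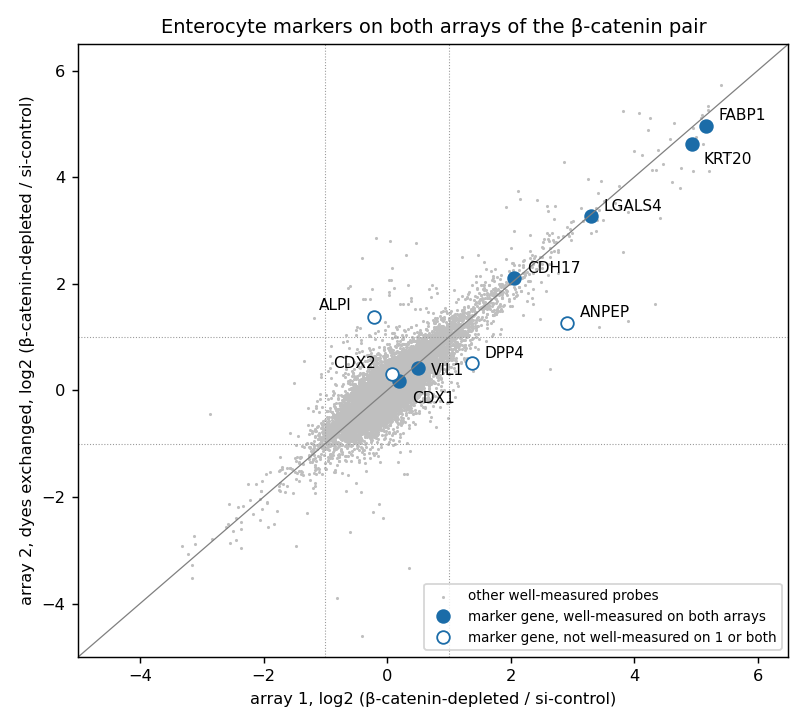
Log2 ratio of β-catenin-depleted over si-control RNA on the first array (x axis) and on the array with exchanged dyes (y axis), with other well-measured probes in grey, the diagonal as a solid line, and 2-fold as dotted lines. FABP1, KRT20, LGALS4, and CDH17 lie close to the diagonal between 2.06 and 5.16, CDX1 and VIL1 lie near 0, and the open points (CDX2, DPP4, ANPEP, ALPI) were not well-measured on both arrays.

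On the arrays against reference RNA, the Ls174T levels of the markers could be followed over 4 conditions. FABP1 had log2 ratios to the reference of -3.72 in si-control, -3.05 in MLLT10/AF10-depleted, -4.75 in BRG1-depleted, and -5.60 in p300-depleted cells, with errors of 0.35 to 0.57. The reference channel of FABP1 was very bright, 169 to 240 times background on these arrays, so that the negative ratios stand beside sample signals of 26.5 (MLLT10/AF10), 16.3 (si-control), 13.2 (BRG1), and 7.65 (p300) times background. The order was the same in the ratio and in the signal. Neighbors in that order differed by 0.67, 1.03, and 0.86 in the ratio, with errors of 0.53 to 0.76.

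KRT20 had log2 ratios of 4.41 in si-control, 4.82 in MLLT10/AF10-depleted, 2.20 in BRG1-depleted, and 1.12 in p300-depleted cells. Its reference channel was dim on all of these arrays, at 1.28 to 1.66 times background. The sample signal of KRT20 was low throughout, 3.44, 4.94, 2.46, and 1.92 times background in the same order. KRT20 and FABP1 therefore shared the order MLLT10/AF10, si-control, BRG1, p300 from highest to lowest. The highest and the second level of KRT20 differed by 0.42 (error 0.69), which is within the error.

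LGALS4 was bright in all 4 conditions, 47.4 to 130 times background, with log2 ratios of 5.36 (si-control), 5.08 (MLLT10/AF10), 4.54 (BRG1), and 4.48 (p300). Its lowest pair of levels, BRG1 and p300, differed by -0.07 (error 0.67) in the ratio, while the sample signals were 130 and 47.4 times background. CDH17 had ratios of 7.46, 8.61, 7.52, and 5.79 in the same order. The reference channel of CDH17 was not well above background on any of these 4 arrays, so the ratio rests on the sample channel, which was 6.38, 7.70, 12.0, and 2.81 times background. CDH17 was lowest after p300 depletion on both scales, while its highest array was that of MLLT10/AF10 in the ratio and that of BRG1 in the signal.

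CDX2 lay between 3.96 and 4.31 on the 4 arrays, with errors of 0.42 to 0.46, so its levels were not separated by more than the error. CDX1 had ratios of 4.78 (si-control), 4.59 (MLLT10/AF10), 3.94 (BRG1), and 4.13 (p300), at 37.3 to 65.9 times background. VIL1 ranged from 2.34 to 2.81, at 146 to 338 times background. The enzymes were dim: DPP4 ranged from 1.37 to 2.02 at 2.60 to 3.54 times background, ALPI from 0.73 to 1.35 at 1.53 to 2.75 times, and ANPEP from -3.38 to -2.16 at 1.51 to 1.87 times, where its sample channel was well above background on 2 of the 4 arrays.

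**Figure D2:**
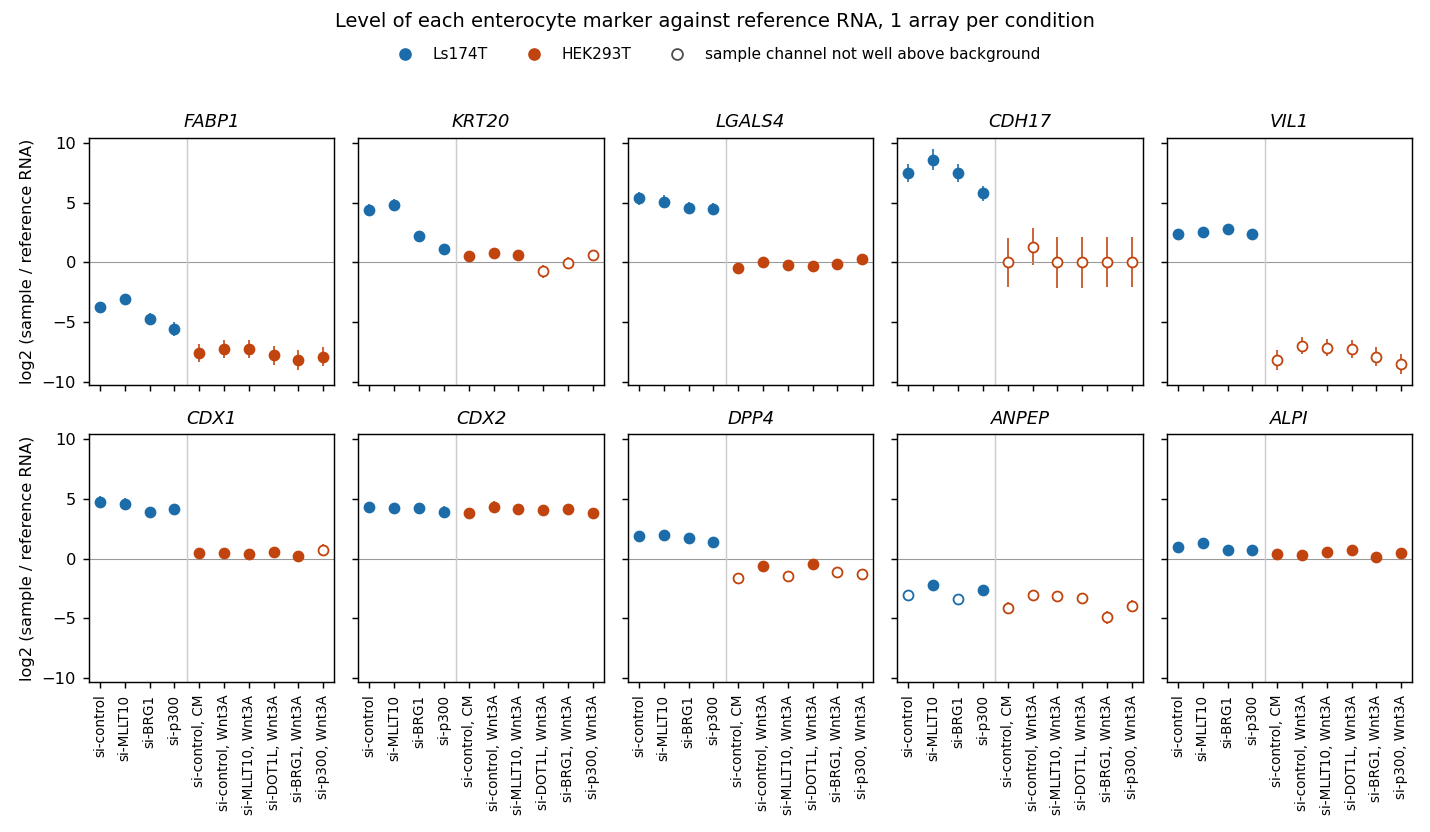
Log2 ratio of sample over reference RNA (y axis) for each of the 10 markers on the 4 Ls174T (blue) and 6 HEK293T (orange) reference arrays, 1 array per point, with the program's error as bars and open points where the sample channel was not well above background. FABP1 runs from -3.05 to -5.60 and KRT20 from 4.82 to 1.12 over the Ls174T arrays, CDX2 lies near 4 in both lines, and VIL1 and CDH17 have no filled point in HEK293T cells.

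Depletion of MLLT10/AF10, compared with si-control cells on the same slide, left 8 of the 9 well-measured markers within 2-fold and raised 1, CDH17. Over all 13146 genes, 0.692% were higher and 0.799% lower. CDH17 was at 1.15 (error 1.15), equal to its error, and its sample channel alone gave 0.21, normexp with loess gave -0.09, and the reference channel was not well above background on either array. FABP1 was at 0.67 (error 0.53), 1.59-fold, which its sample channel alone placed at 0.75. KRT20 was at 0.42, VIL1 at 0.10, DPP4 at 0.08, CDX2 at -0.05, CDX1 at -0.19, and LGALS4 at -0.28, all within their errors. ANPEP was at 0.89 (error 0.48), with si-control cells not well above background, and ALPI at 0.36 (error 0.55) was not well-measured. The marker median was 0.10. FABP1 thus moved by 5.07 after β-catenin depletion and by 0.67 after MLLT10/AF10 depletion.

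Depletion of BRG1, the ATPase of the SWI/SNF chromatin remodeler, lowered 2 of 9 well-measured markers and raised none (0 of 9), against 1.29% of 13253 genes lower and 3.55% higher. KRT20 was 4.63-fold lower at -2.21 (error 0.57), and it ranked 19 of 13253 genes counted from the largest decrease. The reference channel of KRT20 was only 1.41 and 1.38 times background on the si-control and BRG1 arrays, so the fold and the rank are not firm. Its sample channel alone gave -1.37, and normexp with loess -1.40. The sample channels after quantile normalization of average intensities gave -1.05. FABP1 was at -1.03 (error 0.64), 2.04-fold lower, with -0.95 from its sample channel alone, so it lay at the threshold. CDX1 at -0.84 (error 0.65) and LGALS4 at -0.82 (error 0.73) stayed within 2-fold, and their sample channels alone gave -0.02 and -0.15. VIL1 was at 0.41 (error 0.45) and its second probe at -0.30 (error 0.41), so the probes of VIL1 lay on opposite sides. DPP4 at -0.24, CDX2 at -0.06, and CDH17 at 0.06 were within their errors. ANPEP, at -0.32, was not well above background in either sample, and ALPI at -0.21 was not well-measured.

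Depletion of p300, a histone acetyltransferase, also lowered 2 markers, FABP1 and CDH17, of the 8 well-measured, and raised none (0 of 8). Over all 13371 genes, 1.71% were lower and 3.87% higher. FABP1 was at -1.88 (error 0.70), 3.69-fold lower, at rank 37 of 13371 from the largest decrease, and its sample channel alone gave -1.83. CDH17 was at -1.68 (error 0.99), at rank 60, with -2.21 from its sample channel alone and -2.04 by normexp with loess. KRT20 had the largest measured difference of the 10, -3.29 (error 0.57), but its signal on the p300 array was 1.92 times background in the sample channel and 1.66 times in the reference channel, under the limit for a well-measured gene. Both channels were nevertheless called well above background by the program, and the other scales gave -2.00 (normexp with loess) and -2.20 (sample channel alone).

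LGALS4 was at -0.89 (error 0.72) after p300 depletion, within 2-fold, and passed it on the other scales, at -1.06 by normexp with loess and -1.40 by the sample channel alone. CDX1 at -0.65 (error 0.66), DPP4 at -0.57 (error 0.39), and CDX2 at -0.35 (error 0.62) were within 2-fold. VIL1 was at -0.07 (error 0.42) with its second probe at -0.55 (error 0.40), ANPEP was at 0.41 with si-control cells not well above background, and ALPI at -0.25 was not well-measured. The marker median was -0.61 over 8 markers after p300 depletion and -0.32 over 9 after BRG1 depletion. The sets differ, since KRT20 counted only after BRG1 depletion. The BRG1 median is the value of ANPEP, which was not well above background in either sample. These 3 knockdowns share the si-control array, so their values are not independent of each other.

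The si-BRG1 and si-P300 arrays share a slide, and their difference does not use the si-control array. Of 9 markers well-measured there, 1 was lower by 2-fold after p300 than after BRG1 depletion and none was higher (0 of 9), against 1.39% of 13976 genes lower and 0.758% higher. The marker was CDH17, at -1.73 (error 1.00) with -2.79 from the sample channel alone. FABP1 was at -0.86 (error 0.76) and KRT20, not well-measured, at -1.07 (error 0.45), with LGALS4 at -0.07 (error 0.67) in the ratio and -1.26 from the sample channel alone.

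**Figure D3:**
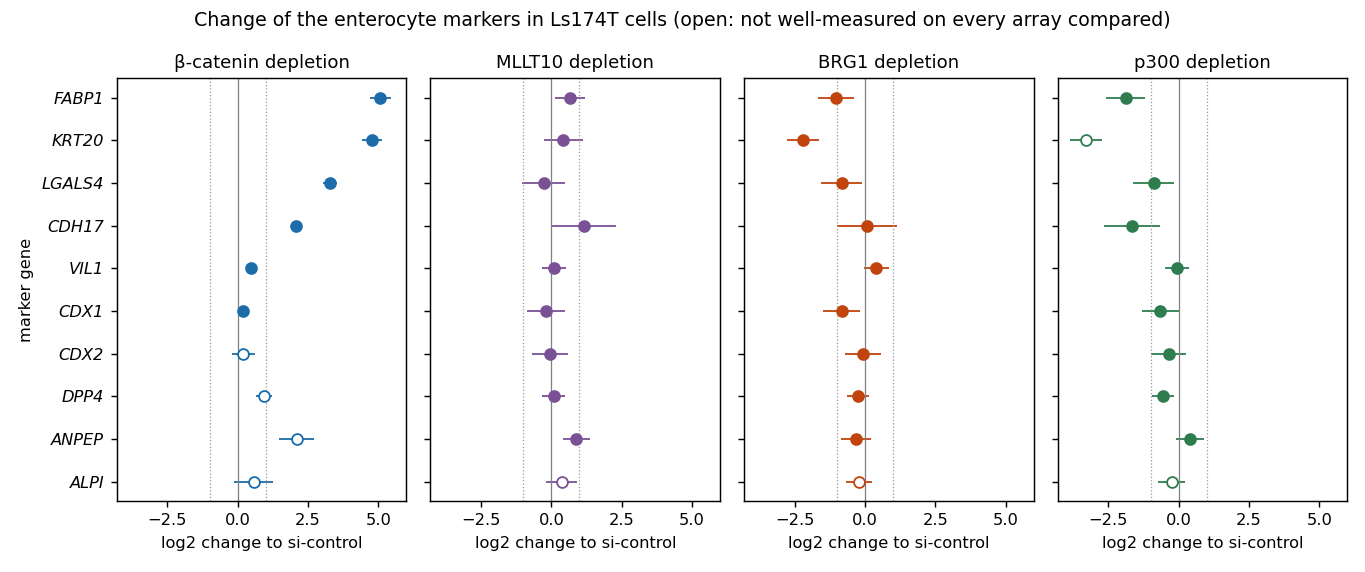
Log2 change to si-control (x axis) of the 10 markers in the 4 Ls174T comparisons, with the program's error as bars, 2-fold as dotted lines, and open points for genes not well-measured on every array compared. FABP1, KRT20, LGALS4, and CDH17 lie between 2.08 and 5.07 after β-catenin depletion, none of the 4 lies above 1.15 in the other comparisons, and FABP1 and KRT20 lie below -1 after BRG1 and p300 depletion.

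Other genes of the absorptive cell were read from lists written from general knowledge. The enzymes, transporters, and lipid handling genes of the enterocyte were mostly too dim on the β-catenin pair: 6 of the 34 on the array were well-measured, 1 was higher and 0 lower by 2-fold, and their median was 0.45. The 1 that rose was CA1, a carbonic anhydrase of the colonic surface, at 3.28 (error 0.19). SLC5A1, the sodium-glucose cotransporter, was at -0.75 (error 0.17) and passed 2-fold in the knockdowns of BRG1, at -1.04 (error 0.67), and p300, at -1.27 (error 0.65). For this list, 3 genes were higher and 1 lower of 17 after BRG1 depletion, and 2 higher and 2 lower of 17 after p300 depletion, with none past 2-fold (0 of 16) after MLLT10/AF10 depletion. The others are named here after their values were seen, since they were dim on the β-catenin pair. CA2, another carbonic anhydrase, and LCT, the lactase, were counted as higher after BRG1 and p300 depletion. Both were well above background in these knockdowns and not in si-control or MLLT10/AF10-depleted cells, so no size of change is given. The same holds for the glucose transporter gene SLC2A2, which was well above background after BRG1 depletion alone. PRAP1 was at -1.03 (error 0.35) after p300 depletion.

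Of 11 well-measured genes of the brush border cytoskeleton and of adhesion between microvilli, 7 were higher and 0 lower after β-catenin depletion, with a median of 1.31. KRT19, a simple epithelial keratin, was at 2.97 (error 0.24), MYO1A, the brush border myosin, at 2.63 (error 0.23), KRT8 at 1.91 (error 0.19), and CDHR5, a cadherin of the microvillus tip, at 1.60 (error 0.19). Villin, at 0.47, was thus below all of these. After MLLT10/AF10 depletion 0 of 15 genes of the list passed 2-fold. USH1C, the scaffold that ties these cadherins to the cytoskeleton, was lower after both BRG1 and p300 depletion, at -1.58 (error 0.44) and -1.72 (error 0.44), and PDZK1, dim on the β-catenin pair, was higher after BRG1 depletion, at 1.04 (error 0.30). The 1 gene of the list counted as higher after p300 depletion, TMOD1, was not well above background in any of the 4 Ls174T conditions and has no readable change.

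Among transcription regulators of the enterocyte, 2 of 11 were higher and 0 lower after β-catenin depletion, with a median of 0.47. They were ELF3, an epithelial Ets factor, at 2.20 (error 0.20), and KLF4, a factor of postmitotic epithelial cells, at 1.66 (error 0.18). After p300 depletion 4 of 16 were lower and 1 higher, with a median of -0.37, and EHF, another epithelial Ets factor, was lowest at -2.62 (error 1.16), with PPARG, a nuclear receptor for fatty acids, at -1.02 (error 0.45). HNF4G, dim on the pair, was at -1.37 (error 0.73). The other call among the 4, GATA4, was not well above background in any of the 4 conditions and has no readable change. The 1 gene counted as higher, PRDM1, was not well above background in si-control cells. EHF was also at -2.18 (error 1.19) after MLLT10/AF10 and at -2.11 (error 1.19) after BRG1 depletion, the only gene of this list past 2-fold in either (1 of 15 and 1 of 14 lower), and these 3 values share the si-control array.

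Markers of other cells of the epithelium moved in the same comparisons as the enterocyte markers. All 8 well-measured goblet cell genes were higher after β-catenin depletion, with a median of 2.01, among them TFF1 at 3.35 (error 0.26), ZG16 at 2.88 (error 0.24), AGR2 at 2.49 (error 0.22), and SPDEF at 2.21 (error 0.21). After p300 depletion 3 of 10 goblet cell genes were lower, ZG16 at -2.30 (error 0.63), SPINK4 at -1.19 (error 0.60), and FCGBP at -1.16 (error 0.47), with a median of -0.72. Of 8 genes that mark colorectal epithelium in general, 6 were higher after β-catenin depletion, CEACAM6 at 3.60 (error 0.28) and CEACAM5 at 3.33 (error 0.26) the most, and KRT8, KRT18, and KRT19 among the 6 also stand in the brush border list. CEACAM6 was the 1 gene of these 8 that was lower after BRG1, at -1.18 (error 0.50), and after p300 depletion, at -1.07 (error 0.51). In the Paneth and tuft cell list, with 2 well-measured genes, PLA2G2A was at 1.86 (error 0.19) and DEFA6 at -2.93 (error 0.26). After p300 depletion they were at -3.03 (error 0.43) and -3.93 (error 0.63), and DEFA6 was at -2.73 (error 0.66) after BRG1 depletion. Neither of the 2 well-measured enteroendocrine genes passed 2-fold. The part of these other cell types in the enterocyte values was not tested.

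Crypt genes went the other way. Of 10 well-measured stem and progenitor genes, 7 were lower and 0 higher after β-catenin depletion, with a median of -1.34, and ASCL2 was at -2.81 (error 0.23), EPHB3 at -2.14 (error 0.20), AXIN2 at -1.97 (error 0.19), and SMOC2 at -1.94 (error 0.19). After MLLT10/AF10 and BRG1 depletion 0 of 12 passed 2-fold in either, and after p300 depletion 2 of 12 were lower, MYC at -1.26 (error 0.31) and OLFM4, which was dim on the β-catenin pair, at -1.54 (error 1.15). The 8 well-measured proliferation genes had a median of -0.77 after β-catenin depletion, and none passed 2-fold (0 higher and 0 lower). Their median was 0.23 after p300 depletion, where the marker median was -0.61.

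**Figure D4:**
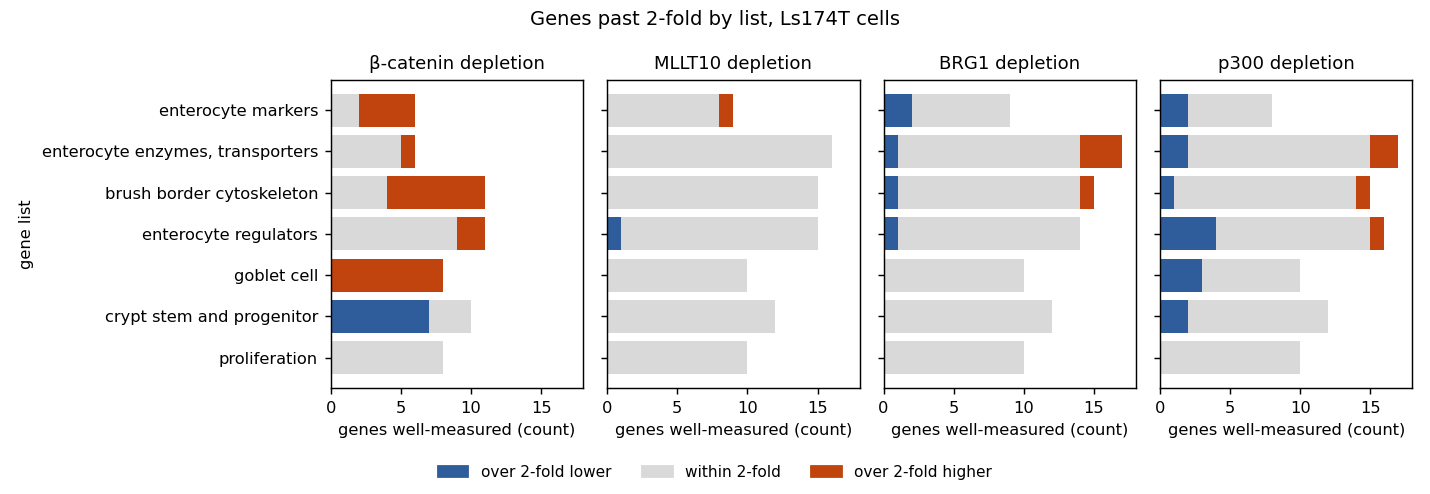
Number of well-measured genes (x axis) in 7 gene lists (y axis) that were over 2-fold lower (blue), within 2-fold (grey), or over 2-fold higher (orange) in each of the 4 Ls174T comparisons. After β-catenin depletion 4 of 6 enterocyte markers, 7 of 11 brush border cytoskeleton genes, and 8 of 8 goblet cell genes are higher and 7 of 10 crypt genes are lower, while after MLLT10/AF10 depletion at most 1 gene of any list shown is past 2-fold.

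The genes whose log2 changes were nearest to those of the raised markers were sought over the 4 Ls174T comparisons, by Euclidean distance among 9065 genes well-measured in all of them. The 3 comparisons with si-control on 1 array share its error, and the distance is a description. FABP1 was nearest to AKR1B10, an aldo-keto reductase, at a distance of 0.49 (changes of 5.14, 1.00, -1.33, and -1.69 after β-catenin, MLLT10/AF10, BRG1, and p300 depletion), then to IL1R2, a decoy interleukin-1 receptor, at 0.64, and to TFF2, a trefoil factor, at 1.02. LGALS4 was nearest to CEACAM5 at 0.52, SDCBP2 at 0.70, and P2RX5 at 0.71. CDH17 was nearest to SLC7A7, an amino acid transporter, at 0.45, SLPI at 0.72, and GJB1, a connexin, at 0.80. KRT20 was not well-measured after p300 depletion and was not placed.

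In HEK293T cells most markers were at or near background. VIL1 and CDH17 were not well above background on any of the 6 HEK293T arrays (the second VIL1 probe was well above it on 3), and ANPEP on none (0 of 6). The brighter VIL1 probe was at least 157-fold and CDH17 at least 6.15-fold higher on the Ls174T reference arrays, where the bound compares the mean Ls174T level with the lowest level that the arrays called above background. The second VIL1 probe gave a measured 5.89-fold, so the probes of villin differed widely in size and not in direction.

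CDX2 was the marker with clear signal in both lines. Its log2 ratio to the reference was 3.82 at the lowest, 4.11 in the middle, and 4.34 at the highest of the 6 HEK293T arrays, with signals 3.86 to 5.65 times background, so the range overlapped that of the Ls174T arrays (3.96 to 4.31). On the scale of the sample channel alone, with both channels normalized between arrays, CDX2 was 4.69-fold higher in Ls174T cells, and the reference channel of CDX2 was only 1.32 to 1.5 times background on the HEK293T arrays. CDX1 was 26.4-fold and LGALS4 56.0-fold higher in Ls174T cells, and in HEK293T cells they stood at 1.5 to 2.09 and 1.55 to 1.96 times background. FABP1 was 6.34-fold higher in Ls174T cells, with HEK293T signals of 1.96 to 2.64 times background and log2 ratios of -8.22 to -7.27. DPP4 was well above background on 2 and KRT20 on 3 of the 6 HEK293T arrays, where the mean levels measured were 2.29-fold and 2.22-fold lower than in Ls174T cells. ALPI, dim in both lines, differed by 1.05-fold. These folds compare means over the 4 Ls174T and the 6 HEK293T reference arrays, knockdowns included. The si-control Ls174T array alone had log2 levels of 10.3 for FABP1 and 8.24 for KRT20. The means over the 4 Ls174T arrays were 9.78 and 7.73.

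By the program's call, 6 of the 10 markers had signal in all 8 Ls174T channels and 4 (FABP1, CDX2, ALPI, and LGALS4) had signal on all 6 HEK293T arrays. With a median signal above 2-fold the local background required, CDX2 was the 1 marker left on all 6 HEK293T arrays. The dim calls of the others in HEK293T cells lie where a faint signal and background are hard to separate. Of 8 hepatocyte genes checked, the program's call gave signal to 6 on all 6 HEK293T arrays and to 7 on all 4 Ls174T reference arrays.

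In the 5 HEK293T comparisons, where 1.5-fold was the threshold, 2 to 4 markers could be followed. None passed it after Wnt3A (0 of 2, against 2.68% of 13201 genes higher and 1.44% lower), MLLT10/AF10 depletion (0 of 2, against 2.37% of 12888 genes higher and 1.63% lower), or DOT1L depletion (0 of 4, against 1.29% of 13067 genes higher and 1.73% lower). FABP1 was lower after BRG1 depletion, at -0.95 (error 1.1), 1 of 2 markers against 10.9% of 12807 genes lower and 8.37% higher, and after p300 depletion, at -0.63 (error 1.08), 1 of 2 against 5.35% of 12673 genes lower and 3.12% higher. Both values are smaller than their errors. In each of the 5 comparisons the arrays compared lie on different slides, so slide and treatment cannot be told apart. CDX2 was at 0.47 (error 0.63) after Wnt3A and between -0.52 and -0.16 in the 4 knockdowns, in each case within its error.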

How the data were processed

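RNA of 12 samples was measured on Agilent 4x44K arrays. The intensities deposited by the authors are median, background, and processed signals of each channel, and the deposited log10 ratios of Cy5 over Cy3 come from Agilent Feature Extraction (10.5.1.1 in the file headers, 8.5.1.1 in the submitters' processing notes). The deposited value table holds the same log10 ratios. Its differences from the array files were at most 1.56e-05 on the log2 scale.

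Ratios were converted to log2, turned to sample over the other channel, and compared as differences to si-control, with the pair averaged. Control spots and outliers were left out, and a gene counted where signal exceeded 2-fold the local background in either channel on every array. In HEK293T cells the sample channel also had to be well above background on both arrays. Calls needed a change over 2-fold in Ls174T cells and over 1.5-fold in HEK293T cells. RefSeq accessions named 27612 of 29084 features (94.9%), and a gene is its brightest probe over the Ls174T arrays. Other genes named are siRNA targets, up to 4 per list past 2-fold after β-catenin depletion and up to 2 per list in each other Ls174T comparison (with the probe well above background on both arrays of the pair), and the 3 nearest genes of raised markers. Members and lists were chosen with earlier results of these data known.

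Alternatives were normexp (offset 50) with loess in limma 3.58.1 (R 4.3.3), the sample channel scaled to its 75th percentile, other filters and thresholds, and single arrays of the pair. Levels of the 2 lines were compared after quantile normalization of average intensities. Steps were tested on simulated data. No feature was saturated (0 on every array), 42.6% to 77.3% of sample signals were well above background, and the small number of arrays limits the precision. The methods put reference RNA on all arrays. For the pair, si-control RNA was taken as the other channel, as labelled.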

Additional observations from a re-analysis of the deposited data

How the results depend on the processing

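After β-catenin depletion, each array of the pair alone gave the same count of 4 raised markers (lowest and highest 4), and leaving out the signal filter gave 5. The call of CDH17 after MLLT10/AF10 depletion turned to -0.089 by normexp with loess, and no marker then passed 2-fold (0), nor with the sample channel alone (0) or with both channels required above 2-fold background (0), while a 1.5-fold threshold gave 3. After BRG1 depletion the count of 2 became 1 with both channels required, 1 with the sample channel alone, and 4 at 1.5-fold. After p300 depletion it became 1 with both channels required, 4 at 1.5-fold, and 3 by normexp with loess, by the sample channel alone, or with no filter, and p300 against BRG1 on their shared slide, an alternative chosen after seeing the data, gave 1. In HEK293T cells the sample channel alone gave 3 markers past 1.5-fold after DOT1L depletion, a 2-fold threshold gave 0 after BRG1 and 0 after p300 depletion, and normexp with loess gave 0 after p300 depletion. The count of 4 markers with signal on all HEK293T arrays fell to 1 with signal above 2-fold background required. Shares over all genes are given for the main settings only, so the counts under other settings cannot be set against a share. The causes of these shifts were not tested. Of the recomputed values of single markers, 229 moved by less than their error and 20 by more. The 1 other, CDH17 after MLLT10/AF10 depletion, was classed as reversed. That class leaves out other changes of sign. ALPI after BRG1 depletion, among the 20, went from -0.21 to 1.54 with the sample channel alone. LGALS4 after MLLT10/AF10 depletion, among the 229, went from -0.28 to 0.27 on the same scale. ANPEP after β-catenin depletion, among the 20, went from 2.09 to 0.53 by normexp with loess. The 229 include values that could not move. These are the values of the deposited table, which holds the same ratios, and the means over probes of markers with a single probe. No paired analysis was possible because each condition was taken as 1 biological replicate and the labels give no shared replicate numbers. Dim signal limits what can be said of ANPEP, ALPI, DPP4, and KRT20.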

Other observations

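On the second array of the β-catenin pair several markers stood less far above the local background than on the first. LGALS4 was 305 and 21.2 times the local background in the depleted channel of the first and the second array, VIL1 was 75 and 14.9 times, and CDX2 was 14.3 and 1.72 times, while FABP1 was 276 and 305 times. These figures also depend on the background at each spot and do not measure brightness alone. The processed signals of the depleted channels were 4.21e+04 and 1.55e+04 for LGALS4 and 9692 and 6376 for VIL1. They were 1720 and 122 for CDX2 and 5.06e+04 and 3.60e+04 for FABP1. The ratios of LGALS4 (3.31 and 3.26) and VIL1 (0.51 and 0.43) were close on the 2 arrays.

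Among genes of the hepatocyte, a cell that also uses FABP1, 8 were checked. The 1 that was well-measured after β-catenin depletion, SERPINA1, was at -0.03 (error 0.25). On the reference arrays 0 of 8 passed 2-fold after MLLT10/AF10 depletion, and 1 of 8, AFP, was lower after BRG1, at -1.86 (error 1.02), and after p300 depletion, at -1.77 (error 1.02). AFP was dim on the β-catenin pair.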
